A study of Mus musculus with 5 samples.

Results

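The genes described are 6 components of the regulatory strand of the muscle thin filament: Tnnt2, Tnnt1, Tnni1, Tnni3, Tnnc1 and Tpm1. They were taken as every probe whose name, known synonym or RefSeq accession was one of these symbols, which gave 8 of 28845 probes and 6 of 24708 genes and transcripts. RNA came from mouse embryoid bodies, aggregates of differentiating embryonic stem cells, as 4 marker-positive populations. These were undifferentiated stem cells positive for Rex1 (day 0), early mesoderm positive for Bra and cardiac mesoderm positive for Flk1 (both day 4.5), and progenitors of the heart positive for Nkx2.5 (day 7.5). The labels name no strain, reporter, drug or genetic change, and they do not say how marker-positive cells were isolated. Below, each population is called by its marker. On 5 two-colour arrays Nkx2.5 was set against Rex1, Bra and Flk1, and Bra and Flk1 were each set against Rex1, with 1 array per pair.

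Troponin is the calcium switch of striated muscle. Troponin C binds calcium, troponin I holds contraction off when calcium is low, and troponin T fixes the complex to tropomyosin, the coiled coil that lies along actin and blocks the myosin sites. Each subunit exists in forms made by separate genes, and the embryonic heart is known to use the slow skeletal troponin I before the cardiac form replaces it after birth. Cardiac troponin T is a common early marker of cells that have entered the cardiomyocyte lineage.

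Ratios are log2 values, so that 1 is a doubling, and all come from background-corrected, dye-normalised signals. No array was repeated and no dye pair was exchanged, so no test between populations was run and no p-value is given. Each comparison was instead read in 2 ways, on its own array and through the other arrays that link the same populations. A gene was called higher or lower where both readings reached 1 in size with the same sign. The brighter population also had to be well above background on every array that carried it. Well above background means above percentile 95 of 96 negative control spots. By array and channel, 77.6% to 95.2% of all probes exceeded this limit, so it filters little. Over all genes the 2 routes differed with an SD of 0.39 in the triangle that holds Bra and 0.44 in the one that holds Flk1. A least-squares fit over the 5 arrays put the error of 1 array at an SD of 0.23. The SE of a difference was 0.16 for Nkx2.5 over Rex1 and 0.18 for pairs with Bra or Flk1 on 1 array. For Flk1 over Bra, which shared no array, it was 0.23. These errors, and every step set against 2 SE below, measure how well the 5 arrays fit together. The spread between repeated cultures is not in them and was not measured. Rex1 was always labelled with Cy3 and Nkx2.5 always with Cy5, so a dye effect on a probe enters both readings of their comparison. A constant effect adds on every array, so a route over 2 arrays holds more of it than the direct array. The gap between these readings therefore holds it along with array error. Among the genes described, second minus first reading over Rex1 ran from -0.35 for Tnnt1 to 0.13 for Tnni3. A constant effect cancels in the second readings over Bra and over Flk1. No dye effect was fitted. Of the genes of the 4 markers, Zfp42 (Rex1) was called lower in Nkx2.5 than in Rex1, at -1.68 and -2.25. Nkx2-5 itself had ratios of 0.53 and 0.91 over Rex1, 0.75 and 0.76 over Bra, and 1.40 and 0.63 over Flk1, and was not called in any of them. T, the gene of Bra, read 1.07 and 0.73 in Bra over Rex1, and Kdr, the gene of Flk1, read 0.68 and 0.64 in Flk1 over Rex1, and neither was called.

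Because 3 of the genes were high together, the sequences around a listed transcript start of each are shown here with that of Tnnt1, which was not. They come from RefSeq on the mouse build GRCm38.p6, run 5′ to 3′ on the gene's strand, and end just past that start. The windows of Tnni1 and Tpm1 lie wholly inside the gene's own record, so their start is an internal one, and that of Tnni3 lies mostly inside it. The windows lie at chr1:135836084-135836383 on the plus strand for Tnnt2, chr14:31208062-31208361 on the plus strand for Tnnc1, chr1:135799171-135799470 on the plus strand for Tnni1 and chr7:4515926-4516225 on the minus strand for Tnnt1. Capitals mark matches, on either strand, to the GATA site (GATAA), the MCAT element bound by TEAD factors (CATTCC), the T-box site (AGGTGT) and the TATA box (TATAAA).
Tnnt2: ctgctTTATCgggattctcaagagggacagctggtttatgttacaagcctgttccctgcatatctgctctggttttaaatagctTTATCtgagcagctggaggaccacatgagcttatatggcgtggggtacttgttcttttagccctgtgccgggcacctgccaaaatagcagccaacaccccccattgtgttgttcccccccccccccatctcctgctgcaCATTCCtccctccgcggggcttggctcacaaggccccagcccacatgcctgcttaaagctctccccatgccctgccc
Tnnc1: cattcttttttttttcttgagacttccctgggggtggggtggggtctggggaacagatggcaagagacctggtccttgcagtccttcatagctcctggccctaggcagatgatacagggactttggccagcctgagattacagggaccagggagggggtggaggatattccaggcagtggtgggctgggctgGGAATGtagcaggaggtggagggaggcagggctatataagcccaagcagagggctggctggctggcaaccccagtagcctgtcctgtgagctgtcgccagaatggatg
Tnni1: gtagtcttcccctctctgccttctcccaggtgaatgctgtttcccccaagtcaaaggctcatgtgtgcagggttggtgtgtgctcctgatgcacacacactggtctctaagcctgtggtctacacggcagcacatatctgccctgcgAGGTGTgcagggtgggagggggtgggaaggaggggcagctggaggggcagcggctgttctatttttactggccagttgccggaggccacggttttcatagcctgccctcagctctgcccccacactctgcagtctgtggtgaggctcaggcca
Tnnt1: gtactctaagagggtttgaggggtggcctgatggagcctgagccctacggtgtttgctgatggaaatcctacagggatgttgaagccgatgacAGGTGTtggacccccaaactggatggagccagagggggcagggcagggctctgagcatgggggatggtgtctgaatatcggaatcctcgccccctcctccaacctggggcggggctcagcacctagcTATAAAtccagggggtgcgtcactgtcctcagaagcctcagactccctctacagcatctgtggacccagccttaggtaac
The Tnnt2 window held 2 GATA sites and 1 MCAT element, which began at -27 from the listed start. In Tnnc1 the MCAT element began at -58, and the Tpm1 window, not printed, held one at -56. The windows of Tnni1 and Tnnt1 held a T-box site instead, at -103 and -157 from their listed starts, and the one in Tnnt1 overlapped an E box (CANNTG). Tnnt1 also matched the TATA box letters, at -30. Only the exact letters TATAAA were searched, and the Tnnc1 window holds the similar stretch tatataag, which they miss. The Tnni3 window held 2 GATA sites and 1 T-box site. Among 32851 mouse promoter windows of this length, 25.4% held a GATA site, 14.7% an MCAT element, 13.7% a T-box site and 13.6% a TATA box, so each match is common. An E box stood in 72.3% of all windows and in those of all 6 genes. No window of the 6 genes matched the NKX2-5 element (TNAAGTG, in 11.5% of windows), the CArG box (1.63%) or the MEF2 box (0.557%), which says only that these letters are not there. The RefSeq table lists another start for Tnnt2 and for Tnni1. The second Tnnt2 window held none of the marked motifs, and the second Tnni1 window held the same T-box site. Of the factors named with these motifs, Gata4, Mef2c, Nkx2-5, Srf, Tbx5 and Tead1, 0 of 6 were called in any comparison. By comparison and direction, 0.00405% to 2.35% of all genes were called, so a count of 0 of 6 lies near these shares. Over Rex1 the direct ratios in Nkx2.5 were 0.01 for Gata4, 0.11 for Mef2c, 0.13 for Srf, 0.19 for Tbx5 and -0.02 for Tead1, and Gata4 exceeded the background limit on 2 of the 3 Nkx2.5 arrays and on none of the 3 Rex1 arrays.

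Tnnt2, cardiac troponin T, was the gene that stood out among the 6. Its background-subtracted signal was 9885 units in Nkx2.5 against 1755 in Rex1 on the same array, 15016.5 in Nkx2.5 against 4284.5 in Bra, and 15308 in Nkx2.5 against 3194 in Flk1. After normalisation the log2 channel levels were 9.83, 10.07 and 10.73 in Rex1, 9.95 and 10.56 in Bra, 10.09 and 11.10 in Flk1, and 13.19, 13.15 and 13.39 in Nkx2.5. The first 3 populations overlapped one another, and Nkx2.5 lay far above all of them. On the array of Bra and Rex1 the Rex1 signal of Tnnt2 did not exceed the background limit, and on the 2 others it did. Direct ratios were 2.46, 2.59 and 2.29 for Nkx2.5 over Rex1, Bra and Flk1, which are folds of 5.49, 6.04 and 4.89. The second readings, 2.51, 2.34 and 2.44, differed from these by less than the SD between routes. Among all 24708 genes and transcripts the direct ratio of Tnnt2 ranked 22 from the top over Rex1, 4 over Bra and 7 over Flk1. Before that stage no step was seen: Bra over Rex1 read 0.12 and -0.14, and Flk1 over Rex1 read 0.02 and 0.17. Signals on these 2 arrays were low, at 1979.5 units in Bra against a background limit of 1368 and 1604 in Flk1 against 950.25. Those of Rex1 were 1139 against 1424.25 and 1365 against 1179, so a small step may be missed. In the fit over all arrays Nkx2.5 stood 2.48 above Rex1, while Flk1 stood 0.11 and Bra 0.00 above it, and these last steps lay within 2 SE.

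Tnnt1, the slow skeletal muscle form of troponin T, took a different course. Its channel levels were 12.20, 11.96 and 12.10 in Rex1, 11.70 and 11.72 in Bra, 11.54 and 11.90 in Flk1, and 11.89, 11.73 and 11.69 in Nkx2.5. Rex1 had the highest 3 levels, and the other populations overlapped. Nkx2.5 over Rex1 read -0.21 and -0.56, over Bra 0.00 and 0.29, and over Flk1 -0.21 and 0.21, with no call. In the fit Rex1 came first, then Flk1 at -0.29, Nkx2.5 at -0.38 and Bra at -0.44, and no step between neighbours in that order exceeded 2 SE. The fitted differences of Nkx2.5 over Rex1 (SE 0.16) and of Bra over Rex1 (SE 0.18) did exceed 2 SE, both with Rex1 higher. The fit held no dye term, and Rex1 carried Cy3 on every array. For this probe the direct ratio of Nkx2.5 over Rex1 exceeded the route through Bra by 0.29 and the route through Flk1 by 0.42. The part of a dye effect in these differences was not tested. A second, dimmer probe assigned to Tnnt1 through an accession in its description had the opposite sign over Rex1, at 0.35 and 0.74. The 2 probes of Tnnt1 therefore disagree in direction for Nkx2.5 over Rex1, and neither reached the size for a call.

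**Figure D1:**
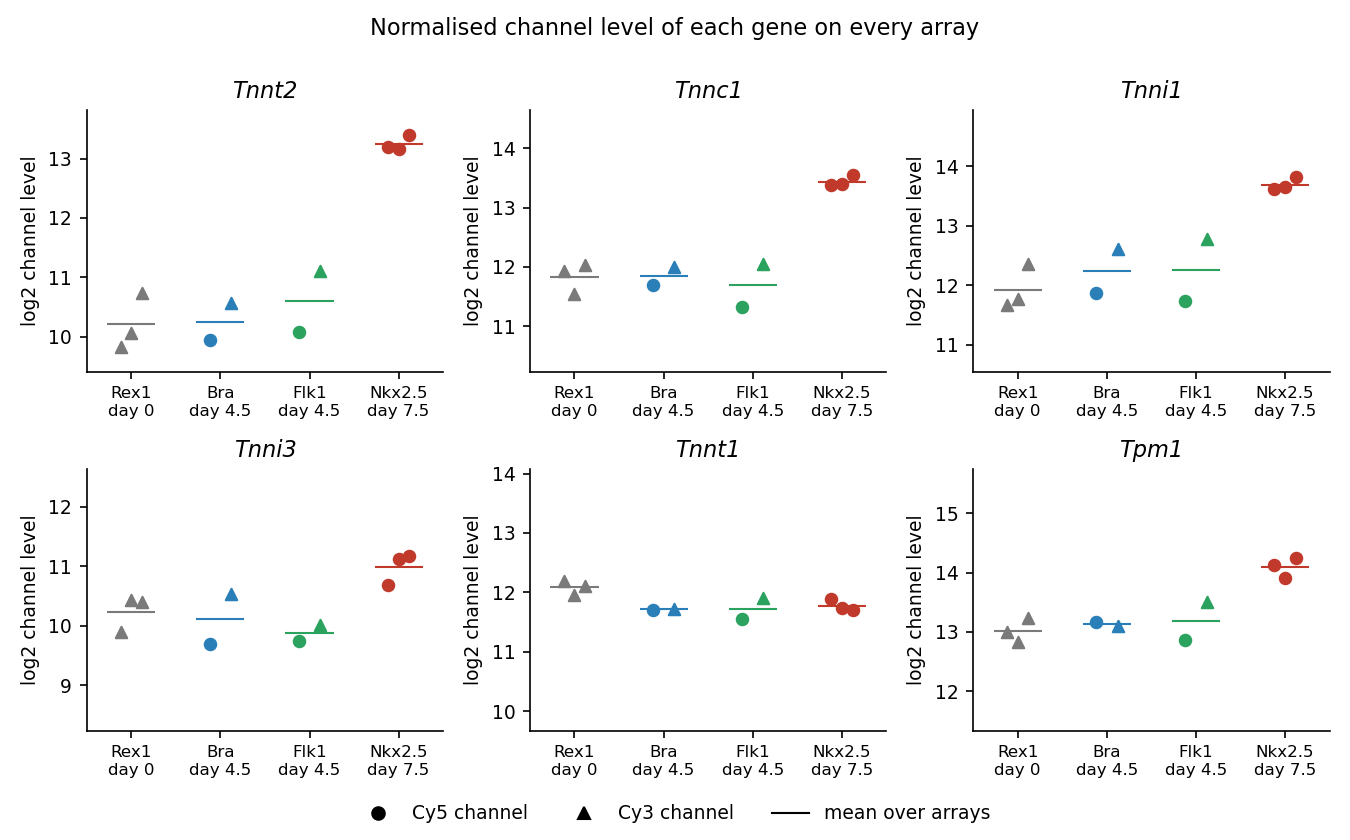
Normalised log2 channel level of each gene (y axis) in Rex1, Bra, Flk1 and Nkx2.5 cells (x axis, with the day), 1 point per array, circles for Cy5 and triangles for Cy3, and a line at the mean over arrays. The y axes span the same number of log2 units but are centred on each probe, so levels of different genes cannot be compared. Nkx2.5 lies clear of the other populations for Tnnt2, with 13.15 as its lowest level against 11.10 as the highest of the others, and within them for Tnnt1.

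Tnni1, the slow skeletal troponin I that the embryonic heart also uses, was higher in Nkx2.5 than in every other population. Its levels were 11.67, 11.76 and 12.35 in Rex1, 11.86 and 12.62 in Bra, 11.74 and 12.77 in Flk1, and 13.62, 13.65 and 13.82 in Nkx2.5, which overlapped none of the others. Within Flk1 and within Bra the level was higher on the array with Nkx2.5, where they carried Cy3, than on the array with Rex1, where they carried Cy5. The same held for Tnnt2, Tnnt1, Tnni3 and Tnnc1, and for Tpm1 in Flk1 but not in Bra. The part of dye and array in these shifts was not tested. For Tnni1, Nkx2.5 over Rex1 read 1.26 and 1.13, over Bra 1.03 and 1.07, and over Flk1 1.05 and 1.29. All 3 comparisons were called higher. The call over Bra was narrow: the fitted difference was 1.02 ± 0.18 (SE), and it was 0.98 without the array of Nkx2.5 and Rex1 and 0.99 without that of Nkx2.5 and Bra. The fitted levels of Bra (0.18 over Rex1) and Flk1 (0.06 over Rex1) did not differ from each other or from Rex1 by over 2 SE.

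Tnni3, the cardiac troponin I that is the blood marker of heart injury in the adult, gave a weaker and dimmer signal. Its levels were 9.89, 10.44 and 10.39 in Rex1, 9.69 and 10.54 in Bra, 9.74 and 10.005 in Flk1, and 10.69, 11.13 and 11.17 in Nkx2.5. The lowest Nkx2.5 level exceeded the highest of the others, 10.54, by less than the error of 1 array. As for Tnnt2, the Rex1 signal exceeded the background limit on 2 of the 3 arrays. Over Flk1 the readings of Nkx2.5 were 1.17 and 0.99, so the second narrowly missed the size for a call. Over Bra they were 0.59 and 0.49, and over Rex1 0.29 and 0.43. Flk1 had the lowest fitted level of Tnni3: Flk1 over Rex1 read -0.70 and -0.88, and Flk1 over Bra -0.50 and -0.58. The fitted step between Bra and Flk1, 0.54, exceeded 2 SE of the error pooled over all genes, but the routes of the 1000 genes nearest to it in brightness differed with SDs of 0.51 and 0.59, wider than the pooled values. A further probe carries no gene name and is described only as a cardiac troponin I. It did not follow Tnni3, with -0.60 and -0.05 for Nkx2.5 over Rex1, close to 0 and -0.60 over Bra, and 0.29 and -0.21 over Flk1, and it was left out of the gene's value.

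Tnnc1, the troponin C shared by heart and slow skeletal muscle, carries the older name Tncc on the array. Its levels were 11.94, 11.54 and 12.03 in Rex1, 11.69 and 12.005 in Bra, 11.33 and 12.05 in Flk1, and 13.38, 13.39 and 13.54 in Nkx2.5. Every level outside Nkx2.5 was at least 1 log2 unit lower. Nkx2.5 over Rex1 read 1.35 and 1.21, over Bra 1.39 and 1.60, and over Flk1 1.49 and 1.57, and Tnnc1 was called higher in all 3. The direct ratios correspond to folds of 2.56, 2.61 and 2.81. Rex1, Bra and Flk1 did not differ beyond their error: Bra over Rex1 read -0.25 and -0.03 and Flk1 over Rex1 -0.21 and -0.14.

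Tpm1, the alpha tropomyosin gene, is spliced into forms used in striated muscle, smooth muscle and the cytoskeleton of most cells, which 1 probe may not tell apart. Its levels were 12.99, 12.84 and 13.23 in Rex1, 13.17 and 13.10 in Bra, 12.87 and 13.51 in Flk1, and 14.13, 13.92 and 14.24 in Nkx2.5, again without overlap between Nkx2.5 and the rest. The ratios stayed under a doubling, with readings of 0.91 and 0.88 over Rex1, 0.82 and 0.73 over Bra, and 0.73 and 0.87 over Flk1. None was called. The fitted step from Nkx2.5 down to Bra, 0.76 ± 0.18 (SE), was the only step between neighbouring levels beyond 2 SE. Nkx2.5 also exceeded Rex1, at 0.89 ± 0.16 (SE), and Flk1, at 0.79 ± 0.18 (SE), by more than that. A second probe, named Tpm1 but described in the files as the product of tpm2, spread the difference over both stages: Nkx2.5 over Rex1 read 1.37 and 1.17, Bra over Rex1 0.59 and 0.89, and Flk1 over Rex1 0.63 and 0.75. For this probe Nkx2.5 over Bra read 0.48 and 0.78, and over Flk1 0.63 and 0.74. Which transcript it measures was not tested.

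**Figure D2:**
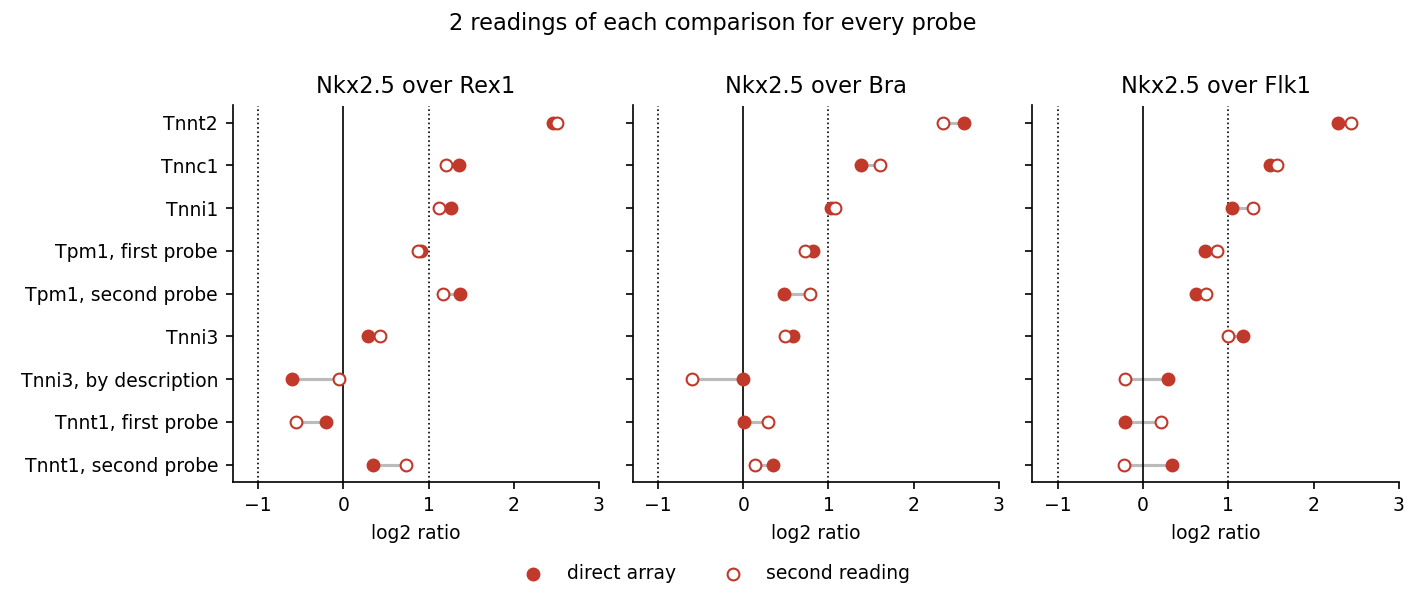
Log2 ratio of Nkx2.5 over Rex1, over Bra and over Flk1 (x axes) for every probe (y axis), with the direct array as filled and the second reading as open circles, and dotted lines at 1 and -1. Tnnt2, Tnnc1 and Tnni1 lie past 1 in both readings of all 3 comparisons, Tnni3 at 1.17 and 0.99 over Flk1, and the 2 Tnnt1 probes on opposite sides of 0 over Rex1.

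Counted together, 3 of the 6 genes, Tnnt2, Tnnc1 and Tnni1, were higher in Nkx2.5 than in Rex1, where 2.35% of all genes and transcripts were called higher. The same 3 were higher than in Bra, against 0.279% of all, and higher than in Flk1, against 0.299% of all. None of the 6 was lower in Nkx2.5, where 0.656% of all were called lower against Rex1, 0.0607% against Bra and 0.085% against Flk1. The median direct ratio of the 6 was 1.08 over Rex1, 0.92 over Bra and 1.11 over Flk1, and the median of all genes lay within 0.01 of 0 in each. The 3 comparisons share the Nkx2.5 RNA, so they are not independent of each other. In 5 of the 6 genes, all but Tnnt1, the 3 Nkx2.5 levels lay above the 7 levels of the other populations, which held for 2.8% of all genes. The reverse, Nkx2.5 below all others, held for none of the 6 and for 2.65% of all. With bulk RNA, more cells of a type and more RNA per cell cannot be told apart.

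At the mesodermal stage 0 of the 6 were called in either direction. In Bra over Rex1, 1.05% of all genes were called higher and 0.219% lower, and in Flk1 over Rex1 0.595% and 0.243%. Medians of the 6 direct ratios were -0.04 for Bra over Rex1 and -0.12 for Flk1 over Rex1, with ranges of -0.50 to 0.19 and -0.70 to 0.04. Between Flk1 and Bra, where 0.0202% of all were called higher and 0.00405% lower, no member was called and the largest readings were those of Tnni3.

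**Figure D3:**
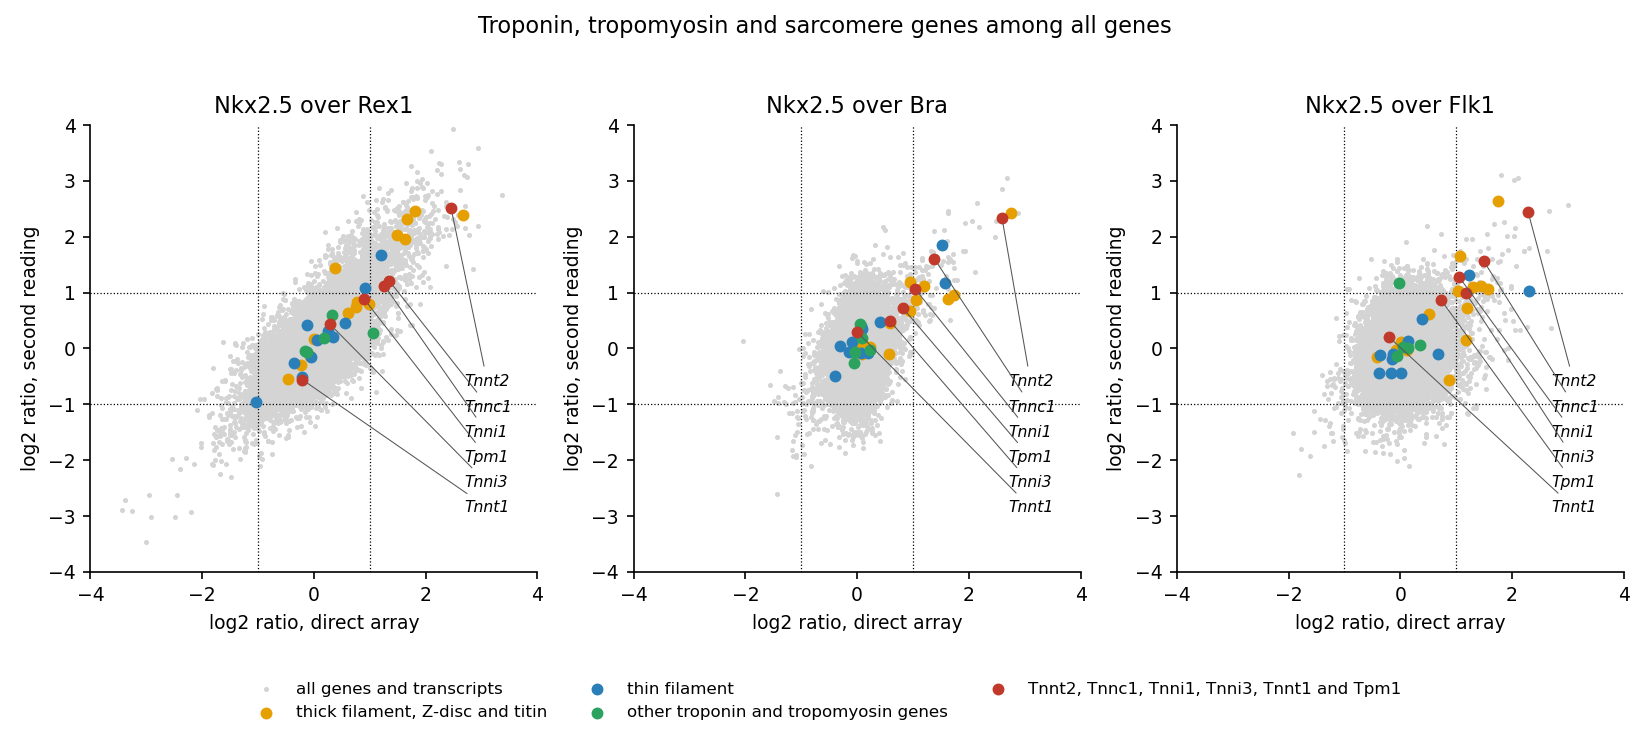
Direct log2 ratio (x axis) against the second reading (y axis) for Nkx2.5 over Rex1, Bra and Flk1, with all genes and transcripts in grey and the troponin, tropomyosin and sarcomere lists in colour; dotted lines mark 1 and -1. Tnnt2 lies at the edge of all genes in each plot, at 2.46 and 2.51, 2.59 and 2.34, and 2.29 and 2.44, and Tnnt1 at -0.21 and -0.56, 0.00 and 0.29, and -0.21 and 0.21.

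The 6 genes include 2 pairs of chromosomal neighbours. In RefSeq, Tnni1 and Tnnt2 lie on chromosome 1 with 1 gene, Lad1, between them. Lad1, which encodes the basement membrane protein ladinin, read 0.06 and 0.23 for Nkx2.5 over Rex1, 0.15 and 0.10 over Bra, and 0.27 and -0.02 over Flk1. Tnnt1 and Tnni3 lie side by side on chromosome 7 with 0 genes between them, and Tnni3 but not Tnnt1 had all its Nkx2.5 levels above the rest.

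No other gene of the family was called. Tnnc2, Tnni2 and Tnnt3, the fast skeletal troponins, and Tpm2 and Tpm3 gave 5 of 6 listed genes with a probe, and Tpm4 was not analysed here. All 5 went uncalled in every comparison. Of all genes, 2.35% were called higher in Nkx2.5 than in Rex1, 0.279% than in Bra and 0.299% than in Flk1. A count of 0 of 5 lies near these shares. The median direct ratio of the 5 was 0.18 over Rex1, 0.05 over Bra and 0.05 over Flk1. Tnnc2 read 1.06 on the direct array over Rex1 but 0.27 by the other routes.

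Of the thin filament list (actin, tropomodulin, leiomodin, nebulin and cofilin genes) 11 of 13 were measured. Over Rex1, where 2.35% of all genes were called higher, 1 was higher in Nkx2.5. This was Tmod1, the tropomodulin that caps the pointed end of the filament, at 1.20 and 1.67, and it was also higher than in Bra (1.52 and 1.85) and Flk1 (2.30 and 1.02). Acta2, the smooth muscle actin that early cardiomyocytes also express, was higher than in Bra (1.58 and 1.17) and Flk1 (1.23 and 1.31), and read 0.92 and 1.08 over Rex1. So 2 of the 11 were called higher over Bra, against 0.279% of all genes, and 2 over Flk1, against 0.299%. Actc1, cardiac actin, read 0.55 and 0.46, 0.42 and 0.48, and 0.40 and 0.52 over Rex1, Bra and Flk1. None of the 11 was called lower, though Neb, a nebulin gene, read -1.04 and -0.95 over Rex1. The list's median direct ratio was 0.06, 0.07 and 0.01.

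Of the thick filament, Z-disc and titin genes 14 of 15 were measured. Over Rex1, where 2.35% of all genes were called higher, 5 of the 14 were called, namely the myosin light chains Myl7 (2.67 and 2.39), Myl4 (1.82 and 2.47) and Myl3 (1.49 and 2.03), myosin-binding protein C Mybpc3 (1.63 and 1.96) and the intermediate filament gene Des (1.67 and 2.32). Over Bra, with 0.279% of all, there were 2, Myl7 (2.75 and 2.42) and Csrp3 (1.21 and 1.11), as many as in the thin filament list. Over Flk1, with 0.299% of all, there were 6. These were Myl7 (1.76 and 2.64), Myl4 (1.58 and 1.06), Myl3 (1.45 and 1.11), the titin gene Ttn (1.30 and 1.10), Myl2 (1.08 and 1.65) and Csrp3 (1.03 and 1.04). Median direct ratios of the list were 0.77, 0.78 and 1.05, beside 1.08, 0.92 and 1.11 for the 6 troponin and tropomyosin genes. The cardiac myosin heavy chains read near 0, with -0.22 and -0.29 for Myh6 and 0.01 and 0.17 for Myh7 over Rex1. Mybpc3 was the only sarcomere gene of these lists that was already higher in Bra than in Rex1, at 1.59 and 1.40. None of the 6 troponin and tropomyosin genes showed such a step by the same rule. In Rex1, Mybpc3 and Myl7 each exceeded the background limit on 1 of 3 arrays and Des on 2, so the sizes of their ratios over Rex1 are uncertain.

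**Figure D4:**
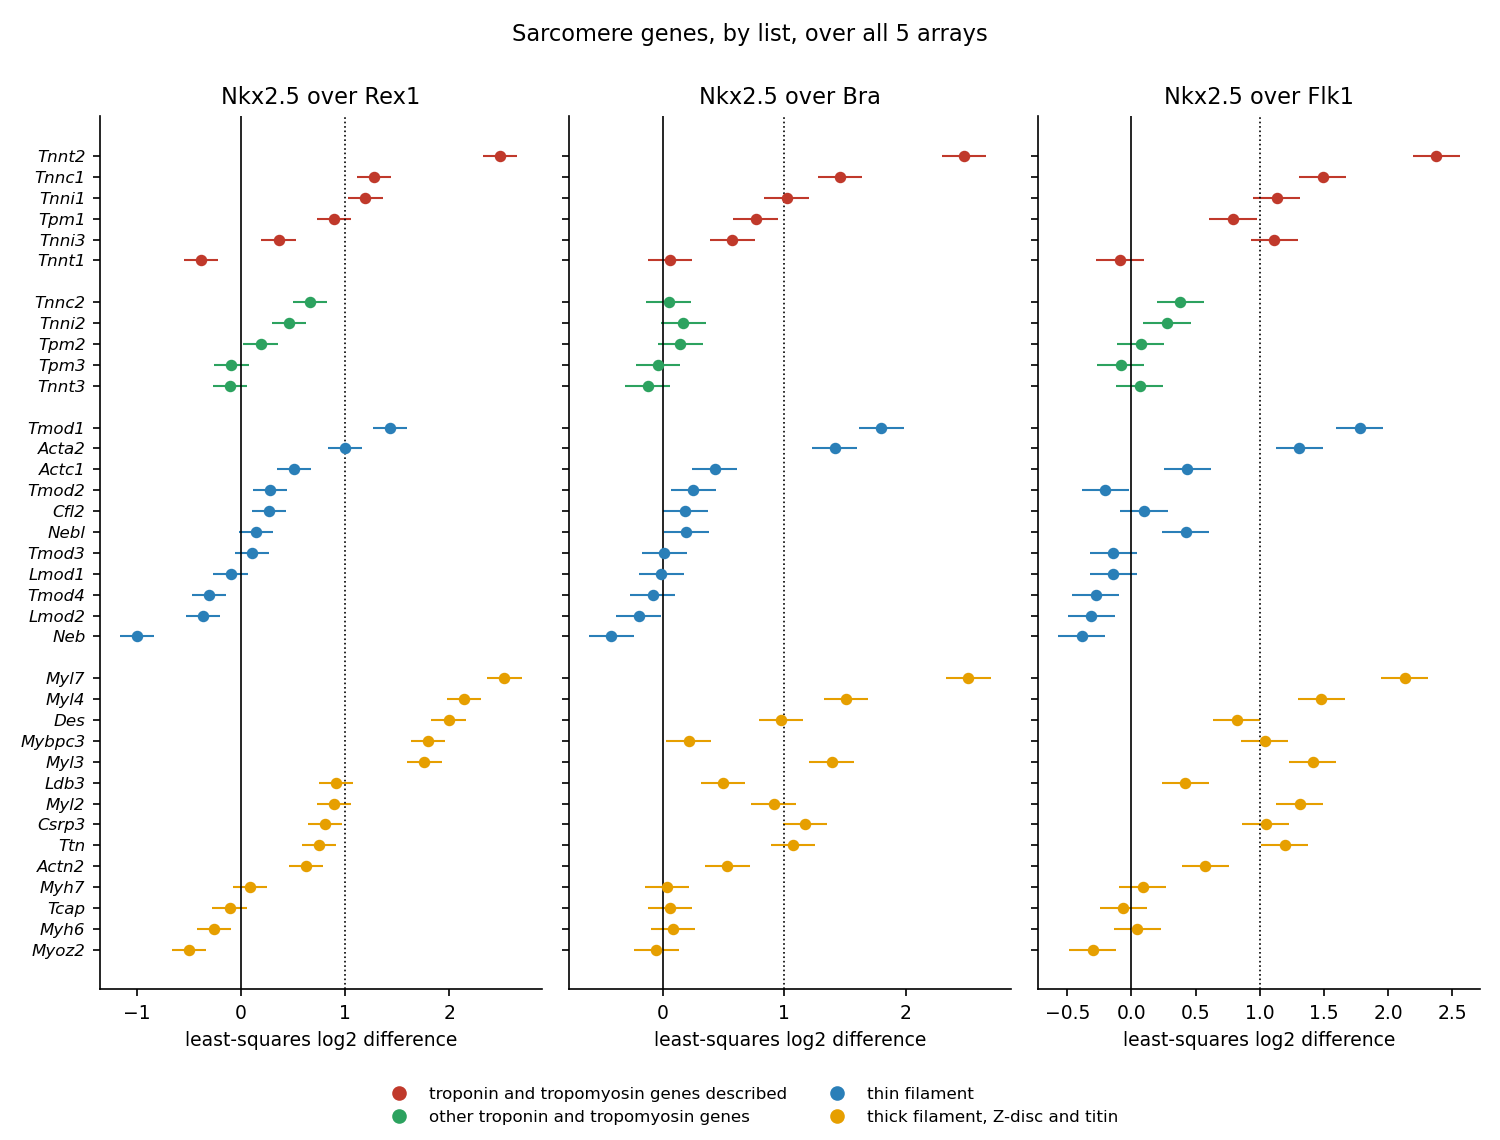
Least-squares log2 difference of Nkx2.5 over Rex1, Bra and Flk1 (x axes, each with its own range) for the 6 genes and the sarcomere lists (y axis); bars are 1 SE of the error pooled over all genes, and the dotted line marks 1. Tnnt2 at 2.48 over Rex1 lies with Myl7 at 2.53, and the 5 further genes of the family, Tnnc2, Tnni2, Tnnt3, Tpm2 and Tpm3, stay under 1 in all 3 plots.

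The genes with the most similar 5 direct ratios were sought among 13457 named genes well above background in Nkx2.5. Nearest to Tnnt2 were Hbb-b2, an adult beta globin, Myl7 and S100g, a calcium-binding protein, with root mean square differences of 0.23, 0.27 and 0.35. For Tnnc1 they were Apoc2, an apolipoprotein, Tgfb2, a growth factor, and Eno3, the muscle enolase, at 0.12, 0.20 and 0.23. For Tnni1 they were Hba-a1, an alpha globin, Fhl1, a LIM protein of muscle, and Gipc2, at 0.12, 0.14 and 0.18. The globins have near-identical copies, so their probes may report several genes. Tnnc1 and Tnni1 were 0.33 apart, with 21 genes nearer to Tnnc1 than Tnni1 was and 44 nearer to Tnni1 than Tnnc1 was. Tpm1, which was not called, was 0.24 from Tnni1, with 14 genes nearer. Tnnt2 was 0.84 from Tnnc1 and 1.04 from Tnni1.

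Genes of other cell types moved in the same comparisons. Over Rex1, 2.35% of all genes were called higher in Nkx2.5 and 0.656% lower. Over Bra these shares were 0.279% and 0.0607%, and over Flk1 0.299% and 0.085%. A count of 0 in a short marker list lies near them. Of 4 blood markers, Hbb-y and Hbb-bh1 were higher in Nkx2.5 than in Rex1, at 2.57 and 2.18 and at 1.27 and 1.92. Both were also higher than in Bra (2.69 and 3.04, and 1.22 and 1.10), and Hbb-y than in Flk1 (1.85 and 2.26). The summed background-subtracted signal of the 4 was 13923.5 to 32208 units on the arrays of Rex1, 21062.5 to 54308.5 in Bra, 18518 to 48198.5 in Flk1 and 75365.5 to 96842 in Nkx2.5. These sums and those below were not normalised between dyes or arrays, so they do not measure amounts per population. Of 4 endoderm markers, Afp (2.60 and 3.33), Ttr (1.98 and 1.83) and Sox17 (1.34 and 1.82) were higher over Rex1, with sums of 7820 to 9803 in Rex1, 19963 to 32614.5 in Bra, 15054 to 17577 in Flk1 and 32604.5 to 53132 in Nkx2.5. Afp (1.93 and 1.74) and Ttr (1.73 and 1.55) were higher over Bra as well, and Ttr (1.55 and 2.04) over Flk1. Of 6 smooth muscle markers only Tagln was called over Rex1, at 1.35 and 1.93. Over Bra, Tagln (1.42 and 1.09) and Acta2 were called, and over Flk1 Acta2, with the values given above. Of 10 measured skeletal muscle markers 0 were called in any comparison. Their sums still ran from 35714.5 to 38245.5 units in Rex1, 51704 to 77233 in Bra, 42609.5 to 44638.5 in Flk1 and 43428.5 to 70184.5 in Nkx2.5. Among 7 cardiomyocyte markers Myl7 and Myl4 were called over Rex1 and over Flk1 and Myl7 over Bra, and Nppa was well above background on 1 of 3 Nkx2.5 arrays. In Nkx2.5 over Rex1, 0 of 5 endothelial and 0 of 4 mesodermal markers were called, and of 5 stem cell markers 1, Zfp42, was lower. Over Bra 1 stem cell marker, Nanog (-1.44 and -2.60), and 1 mesodermal marker, Mixl1 (-1.08 and -1.502), were lower, and over Flk1 Mixl1 (-1.45 and -1.27) was. No marker of these lists had a subtracted signal of 0 on any array, but some did not exceed the background limit. Afp exceeded it on 0 of the 3 Rex1 arrays, and Hbb-y and Myl7 on 1 of 3. The sizes of their ratios over Rex1 are therefore uncertain. Nppa exceeded it on none of the Bra or Flk1 arrays. The part of such cells in the troponin and tropomyosin ratios was not tested.

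The size of the ratios, and with it the calls, depended on how the local background was treated. Per array and channel the negative control spots put the limit of background between 774.5 and 2251.75 units, and the subtracted block background around the Tnnt2 spot was 3540 units in Cy5 and 7859 in Cy3 on the array of Nkx2.5 and Rex1. Without subtraction the direct ratios of Tnnt2 were 0.90, 1.14 and 1.11 over Rex1, Bra and Flk1 and none of the 6 genes was called. The authors' deposited log2 values gave Tnnt2 2.08, 1.91 and 1.80, and by them Tnnt2 alone was called over Rex1, and Tnnt2 and Tnnc1 over Bra and Flk1.

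**Figure D5:**
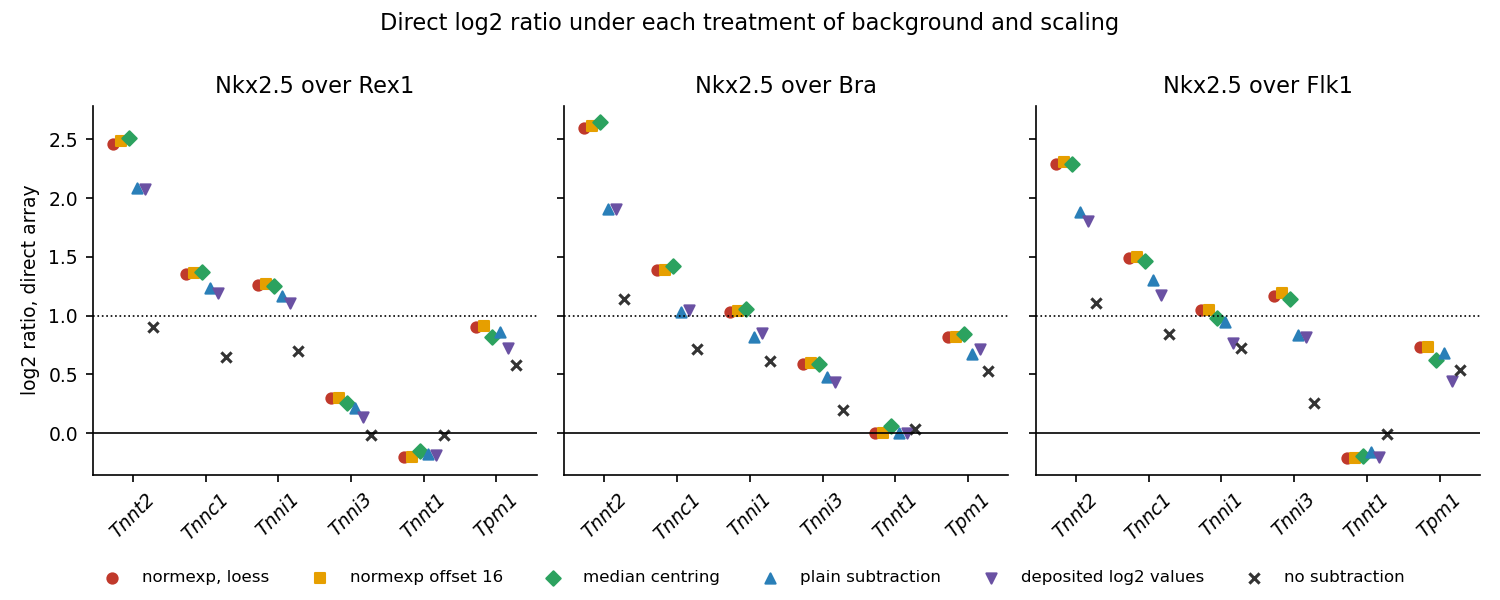
Direct log2 ratio of each gene (y axis) for Nkx2.5 over Rex1, Bra and Flk1 under 6 treatments of background and scaling, 1 symbol each. Without background subtraction the ratios of Tnnt2, Tnnc1, Tnni1 and Tpm1 move toward 0 (Tnnt2 over Rex1 to 0.90), while Tnnt2 stays the highest of the 6 in each plot.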

How the data were processed

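Expression was measured by two-colour hybridisation of RNA from 4 populations on 5 arrays, with dyes and direction (Cy5 over Cy3) as per the labels. Per the labels' protocols, RNA was amplified with amino allyl nucleotides and then dye-coupled. No source used here names the scanner software or the genome build. Per the file headers, the deposited intensity columns hold each channel's median signal and background. On testing, the background was 1 value for each of 48 blocks of 625 spots and the signal already had it subtracted. The deposited ratio divides the scaled intensities and was set to 0 at Bad spots. The authors' deposited log2 values equal the log2 ratio minus 1 constant per array.

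Foreground was rebuilt, corrected with normexp (offset 50) and normalised by loess with controls at weight 0 (limma 3.58.1, R 4.3.3, Python 3.11.15). Channel levels were scaled with Aquantile. The array total of 28845 probes leaves out control, blank and quality spots. Probes were named through RefSeq of GRCm38.p6 (8054 by accession, 181 by an accession in the description, 5227 by symbol, 5063 by unique synonym, 577 by the file's own name, 9743 unnamed), and the brightest probe stood for a gene. None of the 8 probes was marked Bad and no spot was saturated. The number of arrays limits the precision. The second reading of Nkx2.5 over Rex1 averages the Bra and Flk1 routes, and for Flk1 over Bra both readings are routes. The readings and the fit were also run on simulated ratios with independent array error. That simulation held no dye effect and no background limit, so it cannot speak to either. Named genes are the 6 genes with every probe, the rest of their family, called members of the thin and thick filament lists, regulators, population and cell type markers, and the 3 genes nearest to each called member. Actc1, Myh6, Myh7, Neb, Tnnc2 and Lad1 were named after their values were seen. The genes and lists were chosen with earlier results of these data known. Alternatives in background, offset, scaling, probes, thresholds and arrays are given at the end.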

Additional observations from a re-analysis of the deposited data

How the results depend on the processing

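The counts of called genes among the 6 were recomputed under 11 alternatives. Without background subtraction 0 were higher in Nkx2.5 than in Rex1, 0 than in Bra and 0 than in Flk1, in place of 3 each. With the subtracted signal floored at 1 and no normexp, and with the authors' deposited log2 values, 1 was higher than in Rex1. A 1.5-fold threshold gave 5 over Flk1. The other alternatives gave 2 to 4 in these comparisons, 0 lower, and 0 in either direction in the rest. With median centring Tnni3 took the place of Tnni1 over Flk1, and Tnni3 also joined with an offset of 16, with the direct array alone and with least squares. With the mean of all probes Tpm1 joined over Rex1. Leaving out each array in turn kept the fitted difference of Tnnt2 at 2.41 to 2.54 over Rex1, 2.29 to 2.59 over Bra and 2.29 to 2.52 over Flk1. No called ratio changed sign under any of these.

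Over all genes, higher calls in Nkx2.5 over Rex1, Bra and Flk1 were 2, 3 and 3 without subtraction, in place of 581, 69 and 74. They were 280, 42 and 36 with the deposited log2 values, 1389, 186 and 267 at 1.5-fold, and 921, 107 and 145 with least squares. Leaving out Bad spots gave 376 over Rex1, and the direct array alone 282 over Flk1. For Bra and Flk1 over Rex1, with 260 and 147 higher, the deposited values gave 99 and 64, the direct array alone 685 and 601. The cause was not tested. No paired analysis was possible because each pair of populations was hybridised once and the labels carry no replicate numbers.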
